A study of Solanum lycopersicum with 8 samples.

Results

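The 4 genes described here were chosen as salicylic acid markers and the salicylic acid receptor of tomato. The values used are transcript levels and hold no measure of salicylic acid, so its part in the results was not tested. They are PR1b1 and P4, which encode PR-1 proteins, PR-P2, which encodes a PR-4 protein, and NPR1. Each was taken by its gene symbol, and 1 probe set on the Affymetrix Tomato Genome Array carried each symbol. Whether probe sets without a symbol also measure these genes was not tested. Their NCBI gene identifiers are 544123 for PR1b1, 544185 for P4, 544069 for PR-P2 and 543939 for NPR1. These are 4 of 8404 probe sets tested and 4 of the 688 genes with a symbol. The array names no genome build, and positions are therefore left out.

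All plants were tomato of the cultivar Summer sweet, and leaves were sampled. One set of plants was sprayed with neutralized phosphorous acid (NPA), 1 g of phosphorous acid per litre brought to pH 6.3 with potassium hydroxide, and the control set with water. Leaves were taken 6 h or 12 h after spraying, which gave the groups water 6 h, NPA 6 h, water 12 h and NPA 12 h. Each group had 2 arrays, 1 from each of 2 repeats of the whole experiment, and every array carried the pooled RNA of 5 plants. Leaves from before spraying were not analysed here, and the hour of day ran together with the time after spraying.

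PR-1 proteins are small secreted proteins of the CAP family with activity against fungi and oomycetes, and their transcripts are the usual readout of salicylic acid signalling in leaves. PR-4 proteins carry a barwin domain and are also secreted defence proteins. NPR1, known mostly from Arabidopsis, binds salicylic acid and acts in the nucleus with TGA transcription factors as a coactivator of PR-1 genes. Phosphorous acid salts (phosphites) are used on crops against oomycete diseases and are known to prime plant defences.

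Values are log2 expression values as deposited, on which a difference of 1 is a 2-fold difference. The array medians lay between 8.77 and 8.83, and the 2 arrays of a group correlated at 0.968 to 0.987 across probe sets. Brightness differs between probe sets for reasons of sequence, so levels were compared between arrays and not between genes. In leaf RNA a lower value can come from fewer cells that use a gene or from less RNA per cell, and these cannot be told apart. The leaf markers CAB6A, CAB4 and CAB5, which encode chlorophyll a/b-binding proteins, were at 11.98 to 14.17, 11.03 to 13.91 and 8.05 to 13.82 over the 8 arrays. CAB5 was below water under NPA at 12 h in both repeats, by -0.89 and -0.83 (adjusted p = 0.488), against -0.10 and -0.07 at 6 h, and the other 2 markers differed by -0.27 to -0.01 over both times. The part of these differences in the results below was not tested. RNALE, a ribonuclease gene whose transcript is known to respond to phosphate starvation, is given to show how sprayed leaves responded in each repeat. Of all 8404 probe sets it was the 1 that passed at 12 h by limma (adjusted p under 0.05). At 6 h it was among the 14 that passed, so it is no independent check. It rose under NPA by 3.25 and 2.24 in repeats 1 and 2 at 6 h (limma adjusted p = 0.04) and by 3.91 and 3.30 at 12 h (adjusted p = 0.0483, and 0.158 with the repeat as a block).

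The 3 PR genes stood above water on every NPA array at both times, and by far more in repeat 1 than in repeat 2. For P4 in repeat 2 at 6 h the difference was only 0.06. NPR1 also stood above water at both times, by 0.17 to 0.67 on the log2 scale. For each of the 4 genes both NPA arrays were brighter than both water arrays at 6 h and again at 12 h. Over all probe sets 21.9% were separated in this way at 6 h, 17.1% at 12 h and 4.36% at both times. The 4 genes were chosen with earlier results of these data known. These shares, and the ranks among all probe sets below, therefore only describe them. None of the 4 genes passed the test across all probe sets (adjusted p under 0.05) in any comparison of NPA with water.

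PR1b1, the basic PR-1 gene also known as P14 and P6, had values of 6.36 and 7.74 in repeats 1 and 2 of water 6 h and 7.48 and 7.51 of water 12 h. Its values were 11.75 and 8.64 under NPA at 6 h and 13.40 and 10.42 under NPA at 12 h. The dimmest NPA array was thus above the brightest water array, and the brightest of all 8 was the NPA 12 h array of repeat 1. NPA exceeded water at 6 h by 5.39 in repeat 1 and 0.90 in repeat 2, which are 41.9-fold and 1.87-fold. At 12 h it exceeded water by 5.92 and 2.91, or 60.5-fold and 7.52-fold. The group means were 7.05 ± 0.98 for water 6 h, 7.50 ± 0.02 for water 12 h, 10.20 ± 2.2 for NPA 6 h and 11.91 ± 2.11 for NPA 12 h (SD, n = 2). In this order the water groups overlapped each other and the NPA groups overlapped each other.

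The fitted NPA effect on PR1b1 was 3.15 at 6 h (SE 1.25, 95% interval 0.14 to 6.15), an 8.85-fold difference with an adjusted p of 0.297 by limma. At 12 h it was 4.42 (SE 1.25, interval 1.41 to 7.42), a 21.3-fold difference with an adjusted p of 0.46. This was the largest of the 8404 differences at 12 h, and that at 6 h was the 18th from the top (rank 18). Without the NPA 6 h array of repeat 1 the 6 h effect was 1.59, and without that of repeat 2 it was 4.70. Without the NPA 12 h array of repeat 1 the 12 h effect was 2.93, and without that of repeat 2 it was 5.91. Averaged over both times the effect was 3.78 (SE 0.89, adjusted p = 0.227).

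P4, the acidic PR-1 gene, was at 4.91 and 5.51 in repeats 1 and 2 of water 6 h and at 5.54 and 5.05 of water 12 h. Under NPA it was at 8.22 and 5.57 at 6 h and at 11.82 and 6.22 at 12 h. Repeat 1 held both high arrays, and the NPA 6 h array of repeat 2 was level with the brighter water arrays. NPA exceeded water at 6 h by 3.31 in repeat 1 and by 0.06 in repeat 2, which are 9.92-fold and 1.04-fold, while the 2 water 6 h arrays lay further apart than 0.06. At 12 h NPA exceeded water by 6.28 and 1.17, or 77.7-fold and 2.25-fold. The group means were 5.21 ± 0.42 for water 6 h, 5.30 ± 0.35 for water 12 h, 6.90 ± 1.87 for NPA 6 h and 9.02 ± 3.96 for NPA 12 h (SD, n = 2). The water groups overlapped each other, and so did the NPA groups.

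The fitted effect of NPA on P4 was 1.69 at 6 h (SE 1.73, interval -2.46 to 5.83, adjusted p = 0.718) and 3.73 at 12 h (interval -0.42 to 7.87, 13.2-fold, adjusted p = 0.546). It ranked 114 from the top at 6 h and 5 at 12 h. The 6 h effect was 0.36 without the NPA 6 h array of repeat 1 and 3.01 without that of repeat 2. The 12 h effect was 0.93 without the NPA 12 h array of repeat 1 and 6.53 without that of repeat 2. P4 and PR1b1 are neighbours in the tomato genome, with 0 protein-coding genes between them in the RefSeq annotation of SLM_r2.1, and belong to one family. Whether either probe set also binds transcripts of the other gene or of further PR-1 genes was not tested.

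PR-P2, the PR-4 gene, had values of 6.08 and 6.48 in repeats 1 and 2 of water 6 h and 6.58 and 5.73 of water 12 h. Under NPA its values were 10.72 and 7.50 at 6 h and 11.97 and 8.0 at 12 h. All 4 NPA arrays were above all 4 water arrays, and the 2 of repeat 1 stood highest. NPA exceeded water at 6 h by 4.64 and 1.02, or 24.9-fold and 2.03-fold, in repeats 1 and 2. At 12 h it exceeded water by 5.39 and 2.27, or 41.9-fold and 4.82-fold. The group means were 6.16 ± 0.60 for water 12 h, 6.28 ± 0.28 for water 6 h, 9.11 ± 2.28 for NPA 6 h and 9.99 ± 2.81 for NPA 12 h (SD, n = 2). Again the groups of one treatment overlapped between the times.

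The fitted effect on PR-P2 was 2.83 at 6 h (SE 1.44, interval -0.62 to 6.28, 7.11-fold, adjusted p = 0.418) and 3.83 at 12 h (SE 1.44, interval 0.38 to 7.28, 14.2-fold, adjusted p = 0.498). It ranked 26 from the top at 6 h and 4 at 12 h. Without the NPA array of repeat 1 of the same time the effect was 1.22 at 6 h and 1.85 at 12 h, and without that of repeat 2 it was 4.44 and 5.82.

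NPR1, also known as NIM1, was at 7.30 and 7.49 in repeats 1 and 2 of water 6 h and at 7.16 and 7.34 of water 12 h. Under NPA it was at 7.83 and 7.66 at 6 h and at 7.68 and 8.01 at 12 h. The receptor transcript thus varied within 1 log2 unit over all 8 arrays, and each NPA array was above each water array. NPA exceeded water by 0.53 and 0.17 at 6 h, or 1.44-fold and 1.13-fold, and by 0.52 and 0.67 at 12 h, or 1.43-fold and 1.59-fold. The larger difference lay in repeat 1 at 6 h and in repeat 2 at 12 h. The group means were 7.25 ± 0.13 for water 12 h, 7.40 ± 0.13 for water 6 h, 7.75 ± 0.12 for NPA 6 h and 7.85 ± 0.23 for NPA 12 h (SD, n = 2). The water groups overlapped each other and so did the NPA groups.

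The fitted effect on NPR1 was 0.35 at 6 h (SE 0.16, interval -0.04 to 0.74, 1.27-fold, adjusted p = 0.368) and 0.60 at 12 h (SE 0.16, interval 0.21 to 0.98, 1.51-fold, adjusted p = 0.46). It ranked 960 from the top at 6 h and 374 at 12 h. At 12 h its unadjusted p of 0.00877 stood beside 0.0108 for PR1b1, whose effect and SE were both larger.

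**Figure D1:**
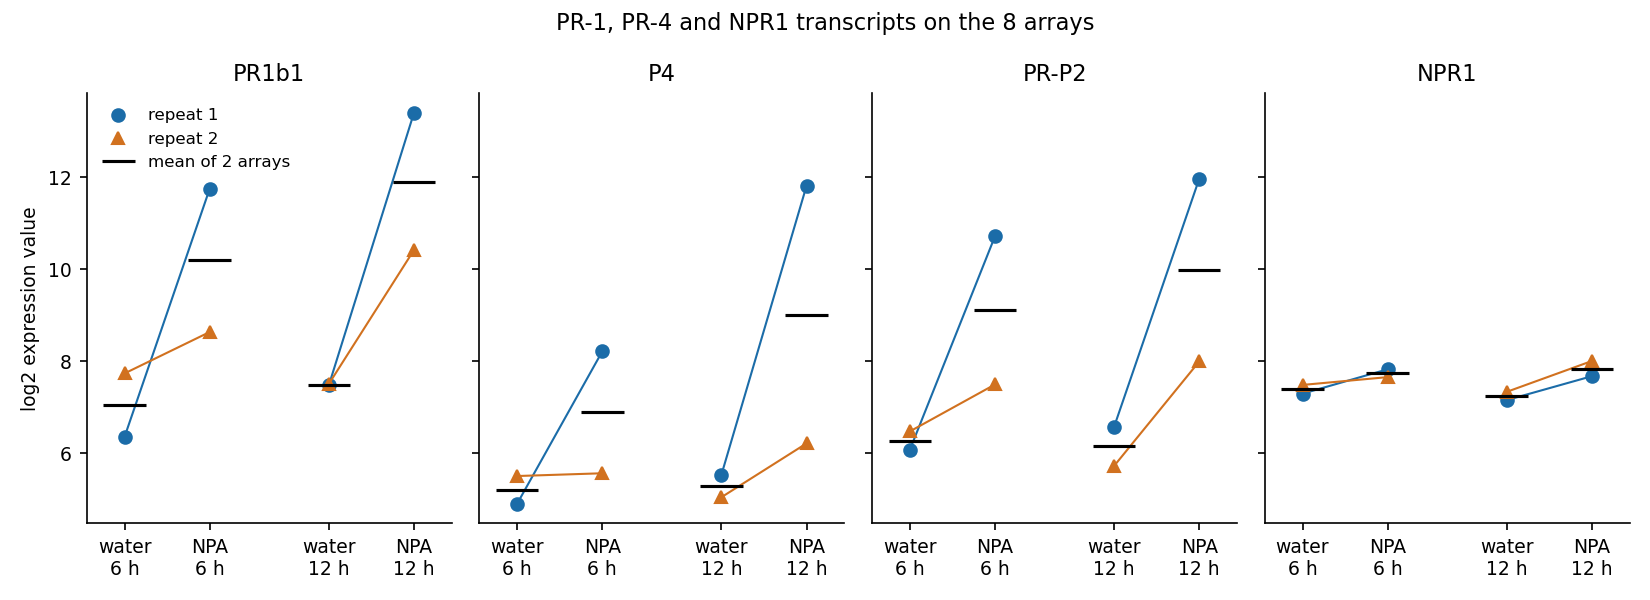
The log2 expression value of each gene (vertical axis, the same in the 4 panels) is plotted for the 4 groups, with circles for repeat 1, triangles for repeat 2, lines joining NPA and water of one repeat, and bars for the mean of 2 arrays. PR1b1, P4 and PR-P2 stood highest in the NPA arrays of repeat 1, whereas NPR1 lay between 7.16 and 8.01 on all arrays.

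The threshold was rarely reached by any probe set when NPA was compared with water. At 6 h 14 of 8404 probe sets passed (0.167%), at 12 h 1 did (0.0119%), and in the average over both times 6 did (0.0714%). At an unadjusted p under 0.05 there were 1319, 811 and 989. With the repeat as a block, 1.29% passed at 6 h, 0% at 12 h (1537 at an unadjusted p under 0.05 by limma) and 0.952% in the average, and none of the 4 genes was among them. Their adjusted p with the block lay at 0.171 for PR1b1, 0.504 for P4, 0.176 for PR-P2 and 0.196 for NPR1 at 6 h, and at 0.192, 0.251, 0.196 and 0.191 at 12 h. In the averaged effect it was 0.113 for PR1b1, 0.218 for P4, 0.113 for PR-P2 and 0.106 for NPR1. Over all alternatives the adjusted p ran from 0.171 to 0.723 for PR1b1 at 6 h, from 0.401 to 0.970 for P4, from 0.176 to 0.836 for PR-P2 and from 0.196 to 0.729 for NPR1. At 12 h the lowest values were 0.192, 0.175, 0.196 and 0.191 in the same order of genes, and the highest was 0.977 for each. In the averaged effect the lowest were 0.0889, 0.0694, 0.0982 and 0.106.

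**Figure D2:**
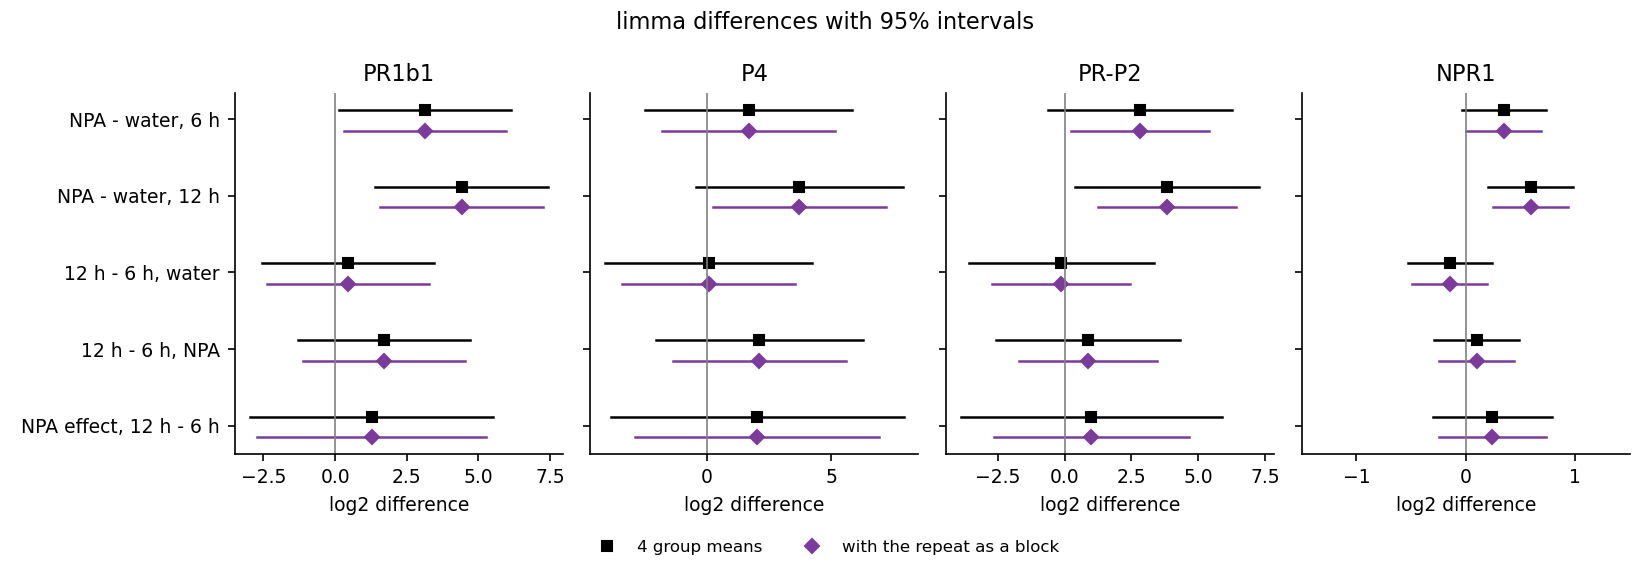
Differences fitted with limma (log2, horizontal axes, which differ between the 4 panels) are shown with their 95% intervals for each gene in 5 comparisons, from the 4 group means (squares) and with the repeat as a block (diamonds). The interval for NPA against water at 12 h lay above 0 for PR1b1, PR-P2 and NPR1 in both fits, and for P4 only with the block. At 6 h it lay above 0 for PR1b1 in both fits, for PR-P2 and NPR1 only with the block, and for P4 in neither. The intervals are not adjusted for the number of probe sets.

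The NPA effects on the 3 PR genes were larger in repeat 1 at both times, and that on NPR1 at 6 h. Averaged over both times, the effect in repeat 1 minus that in repeat 2 was 3.75 for PR1b1 (SE 0.46, interval 2.56 to 4.94), 4.18 for P4 (SE 1.02, interval 1.52 to 6.84) and 3.37 for PR-P2 (SE 0.49, interval 2.1 to 4.64). For NPR1 it was 0.11 (SE 0.21, interval -0.45 to 0.66). Counted from the most positive value, P4, PR1b1 and PR-P2 ranked 1, 2 and 4 among the 8404 probe sets in this difference, and by size in either direction 2, 3 and 5. It did not pass for any of them (limma adjusted p = 0.754, 0.331 and 0.374, and 0.996 for NPR1), and 0% of all probe sets passed (406 at an unadjusted p under 0.05). This test was added after the values had been seen, and the PR genes were not tested against NPR1.

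Repeat 1 also had the wider spread of effects over all probe sets. The SD of NPA minus water over the 8404 probe sets was 0.532 in repeat 1 and 0.452 in repeat 2 at 6 h, and 0.466 and 0.360 at 12 h. A difference of at least 1 was found for 3.75% and 2.31% of probe sets at 6 h and for 2.44% and 1.63% at 12 h. Of the 833 probe sets above water in all 4 within-repeat differences, 498 (59.8%) had the larger one in repeat 1 at both times, as the 3 PR genes had and NPR1 had not.

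Within repeat 2 alone the PR genes moved up the order of effects between the times. PR1b1 ranked 222 of 8404 at 6 h and 4 at 12 h in repeat 2, PR-P2 190 and 6, and P4 3315 and 93. In repeat 1 PR1b1 already ranked 3 at 6 h and 2 at 12 h, PR-P2 9 and 5, and P4 33 and 1. NPR1 ranked 740 and 510 in repeat 1 and 2123 and 351 in repeat 2.

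**Figure D3:**
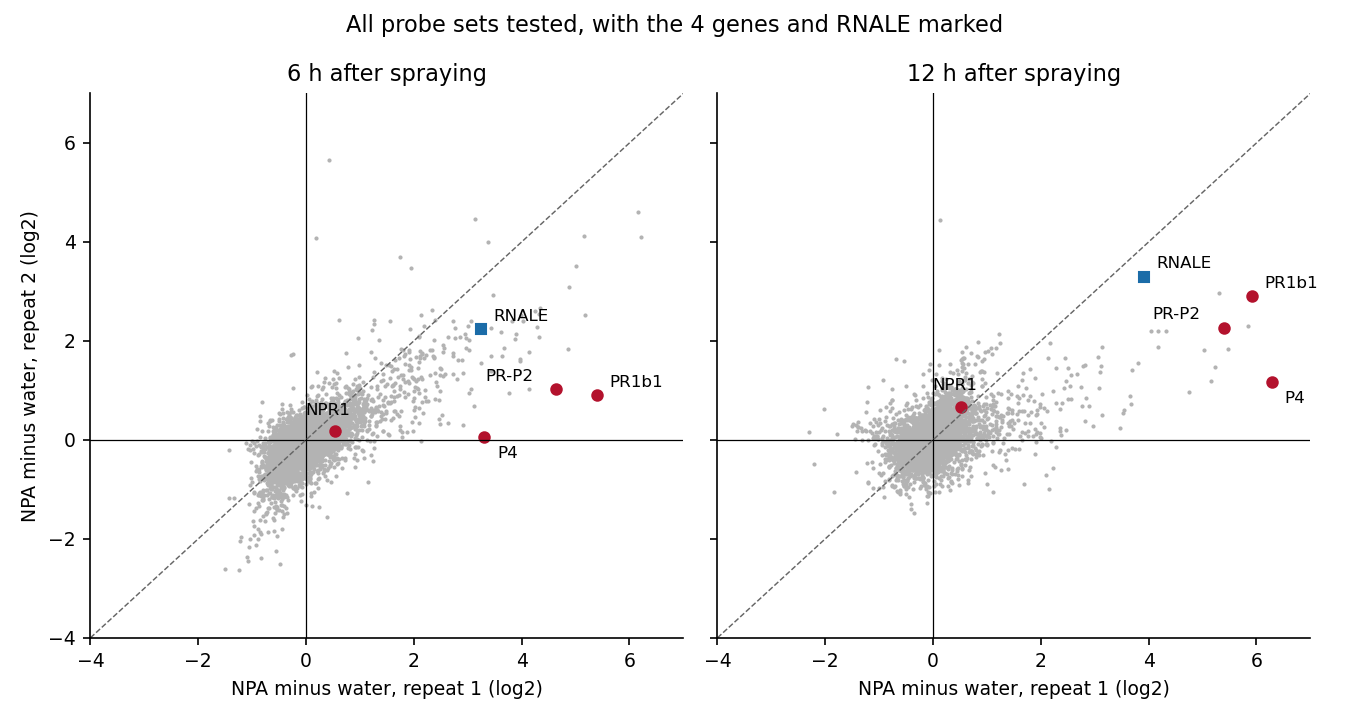
NPA minus water (log2) in repeat 1 (horizontal) is set against that in repeat 2 (vertical) for all 8404 probe sets, at 6 h and 12 h, with the 4 genes as red points, RNALE as a blue square and equal effects along the dashed line. The 3 PR genes lay far below the line at both times, and P4 lay at 0.06 in repeat 2 at 6 h, while RNALE and NPR1 lay nearer to the line.

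Whether the NPA effect grew between 6 h and 12 h was tested as the difference of the effects. It was 1.27 for PR1b1 (interval -2.98 to 5.52, adjusted p = 0.82), 2.04 for P4 (interval -3.82 to 7.90, adjusted p = 0.782), 1.00 for PR-P2 (interval -3.88 to 5.88, adjusted p = 0.888) and 0.25 for NPR1 (interval -0.30 to 0.79, adjusted p = 0.706). None of them passed, nor did any other probe set (0% by limma, with 1123 at an unadjusted p under 0.05). Within each repeat the effect on the PR genes was larger at 12 h than at 6 h, by 0.53 and 2.01 for PR1b1, 2.97 and 1.11 for P4, and 0.75 and 1.25 for PR-P2. The effect on NPR1 was larger in repeat 2, by 0.50, and differed by -0.01 in repeat 1. Of all probe sets 32.1% had a larger NPA minus water difference, sign included, at 12 h in both repeats. Leaving out 1 array sets an unpaired array against the mean of both repeats, and the fitted difference then turned for the PR genes. It was -0.22 for PR1b1, -0.76 for P4 and -0.99 for PR-P2 without the NPA 12 h array of repeat 1, and -0.29 for PR1b1 and -0.61 for PR-P2 without the NPA 6 h array of repeat 2.

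The course over time was also followed within each treatment, using the same arrays as the comparisons above. From 6 h to 12 h in water, 22.2% of all probe sets passed, and in NPA 26% did, so most of the differences found in this experiment were between times. None of the 4 genes was among them. In water PR1b1 differed by 1.12 and -0.23 in repeats 1 and 2 (fitted 0.45, interval -2.56 to 3.45, adjusted p = 0.827), P4 by 0.63 and -0.46 (fitted 0.09, adjusted p = 0.98), and PR-P2 by 0.50 and -0.75 (fitted -0.13, adjusted p = 0.963). NPR1 differed by -0.14 and -0.15 (fitted -0.15, interval -0.53 to 0.24, adjusted p = 0.553). For each PR gene the difference in control leaves was positive in repeat 1 and negative in repeat 2.

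In NPA-treated leaves PR1b1 was brighter at 12 h by 1.65 and 1.78, P4 by 3.60 and 0.65, and PR-P2 by 1.25 and 0.50. The fitted differences were 1.72 for PR1b1 (interval -1.29 to 4.72, adjusted p = 0.354), 2.13 for P4 (interval -2.02 to 6.27, adjusted p = 0.404) and 0.88 for PR-P2 (interval -2.58 to 4.33, adjusted p = 0.686). Without 1 array the value for PR1b1 ran from 0.16 (without the NPA 6 h array of repeat 2) to 3.27 (without that of repeat 1). For PR-P2 it was -0.74 without the NPA 6 h array of repeat 2, -1.11 without the NPA 12 h array of repeat 1 and 2.86 without that of repeat 2. For P4 it was 4.93 with an adjusted p of 0.0382 by limma without the NPA 12 h array of repeat 2, and -0.68 without that of repeat 1, and over all alternatives its adjusted p ran from 0.0382 to 0.813. NPR1 differed by -0.15 and 0.35 (fitted 0.10, interval -0.29 to 0.49, adjusted p = 0.68).

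Beyond these genes, 13 further genes of pathogenesis-related proteins were measured: the chitinase genes CHI3, CHI9, CHI14 and CHI17, the glucanase gene GluB, the thaumatin and osmotin family genes NP24-I, PR-5 and LOC543878, the subtilase genes P69A and P69B, the PR-10 family gene TSI-1, and the lipid transfer protein genes LE16 and TSW12. None of the 13 rose or fell past the threshold under NPA at either time (limma adjusted p from 0.137 to 0.742 at 6 h and from 0.46 to 0.944 at 12 h). In both repeats 11 of them exceeded water at 6 h (33.4% of all probe sets did), and the median difference was 1.15, against -0.01 over all probe sets. At 12 h 9 did so (29.5% of all), and the median was 1.63, against -0.03. The medians within the repeats were 2.1 and 1.12 at 6 h and 2.97 and 0.64 at 12 h. This list was written with earlier results of these data known, so its counts beside all probe sets are a description only.

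Several of these genes shared the uneven repeats of the PR-1 and PR-4 genes. GluB exceeded water by 4.86 and 1.83 in repeats 1 and 2 at 6 h and by 5.15 and 1.19 at 12 h. CHI3 exceeded water by 3.97 and 1.63, and then by 4.33 and 2.2. TSI-1 stood at 2.13 and -0.02 at 6 h and at 5.47 and 1.83 at 12 h. PR-5 stood at 1.99 and 0.17, and then at 2.82 and 0.39. On the water arrays PR-5 and TSI-1 were dim, at 3.60 to 3.84 and 3.36 to 3.59. The lowest value on any array was 2.68, and no detection calls were used. Of the 13, 8 were above water in all 4 within-repeat differences, against 9.91% of all probe sets, and all 8 had the larger difference in repeat 1 at both times, against 59.8% of the probe sets above water in all 4. In both repeats NPA minus water was larger at 12 h than at 6 h for CHI3, PR-5 and TSI-1, which stood above water on average at both times, and less negative for CHI17. These 4 of 13 compare with 32.1% over all probe sets. Since earlier results were known when the list was written, the counts in this paragraph also only describe it.

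Other members of the list took another course. CHI17 was below water in both repeats, by -0.89 and -0.73 at 6 h and -0.30 and -0.32 at 12 h. NP24-I exceeded water almost equally in the repeats at 6 h, by 2.1 and 2.08, and unequally at 12 h, by 2.97 and 0.29. TSW12 stood higher in repeat 2, at 0.51 and 1.12 and then at -0.19 and 1.09. P69A fell from 6 h to 12 h in water, by 1.10 (adjusted p = 0.0102), and in NPA, by 1.17 (adjusted p = 0.00787), while its fitted NPA effects were 0.24 at 6 h and 0.17 at 12 h. LE16 fell from 6 h to 12 h in NPA, by 1.48 (adjusted p = 0.0305). It stood at -0.68 in water (adjusted p = 0.229, and 0.0323 with the repeat as a block), and no other gene of the list passed between the times.

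Of the genes searched for in salicylic acid synthesis, perception and signalling, the annotation named 1 besides NPR1. This was LOC543600, which has the synonyms NIF1 and TGA2.2 and belongs to the TGA factors with which NPR1 acts. It exceeded water by 0.45 and 0.18 in repeats 1 and 2 at 6 h and by 0.33 and 0.07 at 12 h (fitted 0.32 and 0.20, adjusted p = 0.381 and 0.691). Its NPA arrays did not overlap with the water arrays at either time, as for NPR1, and its differences were of the size of those of NPR1 rather than of the PR genes. It was brighter at 12 h than at 6 h in water, by 0.59 and 0.30 (adjusted p = 0.0784), and in NPA, by 0.47 and 0.19 (adjusted p = 0.152).

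**Figure D4:**
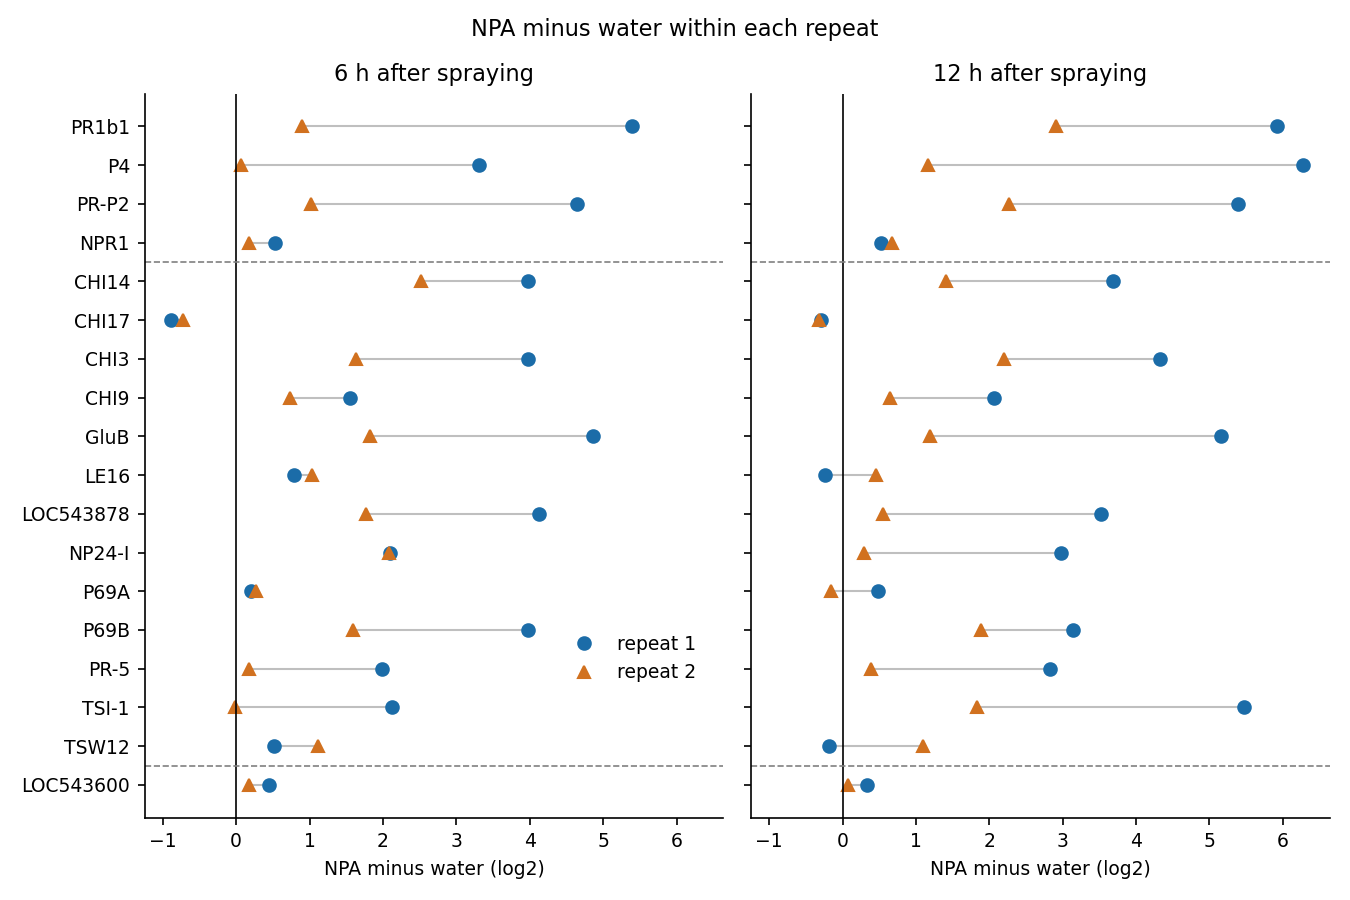
NPA minus water (log2, horizontal axis) is shown for repeat 1 (circles) and repeat 2 (triangles) at 6 h and 12 h for the 4 genes (top), 13 other genes of pathogenesis-related proteins (middle) and LOC543600 (bottom). At 12 h 11 of the 13 genes had the larger value in repeat 1, and the NPR1 and LOC543600 points of the repeats lay close together.

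The genes whose values over the 8 arrays were most like those of each gene were found by Pearson's r over the other 687 genes with a symbol. The r values describe arrays that share treatments, times and repeats, and without the 2 arrays farthest from the median they rest on 6 arrays. For the PR genes these 2 were the NPA arrays of repeat 1. For NPR1 they were the water 12 h array of repeat 1 and the NPA 12 h array of repeat 2. The median r over the 687 genes was 0.0101 for PR1b1, 0.0317 for P4, 0.0117 for PR-P2 and 0.0238 for NPR1.

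PR1b1 was most like the subtilase gene P69B (r = 0.969, Spearman's rho = 0.905, r = 0.905 on 6 arrays), then PR-P2 (r = 0.967, rho = 0.881, 0.885 on 6) and Wiv-1, an invertase gene (r = 0.963, rho = 0.976, 0.892 on 6). PR-P2 was most like the chitinase gene CHI3 (r = 0.989, rho = 0.976, 0.955 on 6), then PR-5 (r = 0.974, rho = 0.833, 0.811 on 6) and LOC543986 (r = 0.971, rho = 0.929, 0.862 on 6). P4 was most like DES, a divinyl ether synthase gene (r = 0.982), but that likeness rested on the NPA arrays of repeat 1, with rho = 0.595 and r = 0.408 on 6 arrays. PR-5 (r = 0.980, rho = 0.905, 0.852 on 6) and cevi19 (r = 0.979, rho = 0.929, 0.751 on 6) followed. PR-5 was dim on all water arrays, as given above. The NPA effects of DES were 1.04 and -0.21 at 6 h and 3.46 and 0.25 at 12 h in repeats 1 and 2.

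NPR1 had no gene at an r above 0.9, against 16 genes for PR1b1, 10 for P4 and 20 for PR-P2. It was most like TD2, a threonine deaminase gene of the wound response (r = 0.9, rho = 0.881, 0.978 on 6), then RNALE (r = 0.891, rho = 0.810, 0.946 on 6) and FLACCA, a gene needed for abscisic acid synthesis (r = 0.847, rho = 0.905, 0.750 on 6). The NPA effects of TD2 were 2.57 and 1.34 at 6 h and 2.68 and 1.34 at 12 h. Among the 4 genes themselves r was 0.967 between PR1b1 and PR-P2, 0.948 between P4 and PR-P2 and 0.919 between PR1b1 and P4. With NPR1 it was 0.727 for PR1b1 (rho = 0.881), 0.616 for PR-P2 (rho = 0.738) and 0.437 for P4 (rho = 0.762). Without the NPA arrays of repeat 1, the r of PR1b1 was 0.912 with NPR1, 0.885 with PR-P2 and 0.926 with P4, and NPR1 stood at 0.846 with PR-P2 and 0.783 with P4. The lower r of NPR1 with PR1b1 than of PR-P2 with PR1b1 thus rested on these 2 arrays.

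Measures of other cells and of RNA quality stood beside these results as follows. MTS1, the 1 measured marker of glandular trichomes, was at 3.92 and 3.97 in water 6 h, 4.88 and 6.03 in NPA 6 h, 3.30 and 3.46 in water 12 h, and 3.36 and 3.81 in NPA 12 h. It was thus higher under NPA at 6 h, by 0.96 and 2.06 (adjusted p = 0.137), with the larger difference in repeat 2, and differed by 0.06 and 0.35 at 12 h. The 3′ minus 5′ difference of the control transcripts was 0.14 and 0.06 for gapdh in repeats 1 and 2 of NPA 6 h against 0.24 and 0.28 in water 6 h, and -0.04 and -0.13 against 0.12 and 0.00 for actin. At 12 h the gapdh values were 0.42 and 0.29 in NPA against 0.43 and 0.18 in water, and the actin values 0.00 and -0.12 against 0.00 and 0.11. Their part in the results on the PR genes and NPR1 was not tested.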

How the data were processed

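Tomato leaf RNA was measured on 8 Affymetrix arrays, and the authors deposited 1 log2 expression value per probe set and array, made with RMA per the submitters' processing notes; the RMA version is not given in the sources used here. Values ran from 2.68 to 14.6, no detection calls were used, and the number of arrays limits the precision. Groups and repeat numbers came from the sample titles. Of 8488 probe sets 84 controls were left out. The platform annotation gave 1 symbol for 753 and none for 7651 of the remaining 8404, and 739 had an entry in the RefSeq gene table of SLM_r2.1. It holds symbols and synonyms only, so the word searches planned for the lists could not be made. No sequences are printed.

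The fit used limma 3.58.1 under R 4.3.3 with 1 mean per group and all 8 arrays (lmFit, eBayes, 4 residual and 2.55 prior degrees of freedom), with Benjamini-Hochberg adjustment over the 8404 probe sets and a threshold of 0.05. Comparisons share arrays: the water 6 h arrays enter the 6 h effect, the difference of the effects and the time course. Each group had 1 pool of plants per repeat, so p-values of this fit measure the spread between pools together with differences between the repeats. The difference between repeats was tested in a fit with the repeat and its interaction with treatment. Scripts were tested on simulated data.

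The design text says that the whole set was repeated, which pairs same-numbered arrays. Their deviations from the group means correlated at 0.316 to 0.596 over 6 pairs of groups.

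Named are the 4 genes, every measured gene of both lists and the 3 genes most alike to each member. RNALE describes the response to spraying, and MTS1 and the leaf markers are checks. The members and lists were chosen with earlier results of these data known. Alternatives were the repeat as a block, quantile normalization, median centring, leaving out dim probe sets, eBayes with a trend or made robust, weights per array, 1 probe set per gene, only the arrays compared, and leaving out each array. Figures were drawn with matplotlib 3.10.9.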

Additional observations from a re-analysis of the deposited data

How the results depend on the processing

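Over 408 recomputed values of 28 results, 393 kept their direction and their side of the threshold, 14 turned direction and 1 passed the threshold. All 15 came from leaving out 1 array. No direction of NPA against water turned for any of the 4 genes, and with the replicate block no call changed (the smallest adjusted p was 0.106, for the averaged NPR1 effect of 0.47). Leaving out single arrays gave, for 12 h against 6 h in water, log2 differences from -0.25 to 1.14 for PR1b1, -0.22 to 0.39 for P4 and -0.55 to 0.30 for PR-P2. For 12 h against 6 h in NPA they ran from -0.68 to 4.93 for P4, which passed at 4.93 without the NPA 12 h array of repeat 2, from -1.11 to 2.86 for PR-P2 and from -0.065 to 0.265 for NPR1. For the difference of the NPA effects they ran from -0.29 to 2.83 for PR1b1, -0.76 to 4.84 for P4 and -0.99 to 2.99 for PR-P2. The array left alone in its group was taken to vary as the other groups do. Of the 3 most alike genes, ranking by Spearman's rho kept 1 for PR1b1, 0 for P4, 1 for PR-P2 and 2 for NPR1, and centring each repeat kept 2, 3, 1 and 1. Another probe set for NPR1 was planned and not run, since only 1 carries its symbol. With 2 arrays per group, effects of several log2 units did not pass where the repeats differed as they did for the PR genes.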
